A study of Mus musculus with 22 samples.

Results

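The genes Chat, Slc18a3, Slc5a7, Ache, Phox2a, Mnx1 and Prph, which belong to cholinergic neurons and to motor neurons of the hindbrain, were followed through the brain of the young mouse. Each gene was read from its RefSeq-identified probe with the highest median over 22 arrays. On this rule 6 of the 7 genes had a probe, of 20129 gene symbols on the array, and Mnx1 had none, so no value is given for it. The arrays measured total RNA of brain slabs, called fractions, from 3 male C57BL/6J mice of an inbred laboratory strain: 10 coronal fractions of 1 mouse, 6 horizontal fractions of another and 6 sagittal fractions of the last. The labels name no treatment and no transgene, and they disagree on age, with postnatal day 7 in the sample titles, which is also the age in the study's methods, and day 3 in the age field. Coronal fraction 10 joined slabs 10 and 11, sagittal fraction 1 slabs 1 and 2, and sagittal fraction 6 slabs 7 to 9, while the other fractions were 1 slab each. Every fraction is a single array without a replicate. The p-values below therefore measure the scatter of slabs around fitted zone means and curves, pooled over the 3 mice, and not the spread between animals.

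Acetylcholine is made from choline by choline acetyltransferase (Chat), packed into synaptic vesicles by the vesicular acetylcholine transporter (Slc18a3), and split after release by acetylcholinesterase (Ache). The freed choline is taken back up by the high-affinity choline transporter (Slc5a7). In the brain the neurons that use it lie in separate places, among them the motor nuclei of the brainstem, the striatum and the basal forebrain. Phox2a is a homeodomain factor of cranial motor neurons and of noradrenergic neurons, Mnx1 is a homeodomain factor of somatic motor neurons, and Prph encodes peripherin, an intermediate filament of motor and sensory neurons with long peripheral axons.

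The promoter windows of 5 of the genes are shown for the following reasons. Chat and Slc18a3 belong to 1 locus, and the Pearson r of their levels was -0.04 over all 22 arrays. It was 0.69 over the 15 arrays whose spike-in controls were in range, as given below. Slc5a7 followed Slc18a3, and Phox2a and Prph differed most between the ends of the coronal series. Each window runs from 250 bases before to 50 bases after the gene's start in RefSeq on the build GRCm38.p6, 5′ to 3′ on the gene's strand. In the RefSeq annotation Slc18a3 lies inside Chat, and its start is 1059 bases after that of Chat. Capitals mark the TATA box TATAAA, the GC box written GGGCGG and the homeodomain core TAATTA, each on either strand.
Chat, chr14:32465860-32466159, minus strand: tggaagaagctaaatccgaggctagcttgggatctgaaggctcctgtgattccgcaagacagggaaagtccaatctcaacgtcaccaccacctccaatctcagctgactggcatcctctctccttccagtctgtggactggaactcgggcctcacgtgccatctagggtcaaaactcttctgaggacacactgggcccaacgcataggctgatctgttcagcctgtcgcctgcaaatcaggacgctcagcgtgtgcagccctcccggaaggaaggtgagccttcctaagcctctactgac
Slc18a3, chr14:32464801-32465100, minus strand: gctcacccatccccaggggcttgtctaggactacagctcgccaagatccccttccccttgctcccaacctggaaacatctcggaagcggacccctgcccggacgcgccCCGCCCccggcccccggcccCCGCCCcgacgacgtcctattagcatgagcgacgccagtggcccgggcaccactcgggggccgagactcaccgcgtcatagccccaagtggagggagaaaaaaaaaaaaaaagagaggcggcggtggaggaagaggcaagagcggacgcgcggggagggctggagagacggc
Slc5a7, chr17:54298985-54299284, minus strand: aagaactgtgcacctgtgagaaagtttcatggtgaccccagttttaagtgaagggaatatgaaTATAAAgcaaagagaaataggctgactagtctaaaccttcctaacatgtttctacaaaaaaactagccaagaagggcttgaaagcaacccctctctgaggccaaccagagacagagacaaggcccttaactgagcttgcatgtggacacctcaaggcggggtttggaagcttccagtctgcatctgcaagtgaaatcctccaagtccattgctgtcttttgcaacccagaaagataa
Phox2a, chr7:101818063-101818362, plus strand: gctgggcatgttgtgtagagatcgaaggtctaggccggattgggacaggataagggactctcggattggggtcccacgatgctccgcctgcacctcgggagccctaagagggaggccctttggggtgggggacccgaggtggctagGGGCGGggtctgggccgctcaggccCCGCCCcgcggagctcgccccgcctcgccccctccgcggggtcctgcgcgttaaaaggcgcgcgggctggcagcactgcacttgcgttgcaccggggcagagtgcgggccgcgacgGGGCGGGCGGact
Prph, chr15:99054924-99055223, plus strand: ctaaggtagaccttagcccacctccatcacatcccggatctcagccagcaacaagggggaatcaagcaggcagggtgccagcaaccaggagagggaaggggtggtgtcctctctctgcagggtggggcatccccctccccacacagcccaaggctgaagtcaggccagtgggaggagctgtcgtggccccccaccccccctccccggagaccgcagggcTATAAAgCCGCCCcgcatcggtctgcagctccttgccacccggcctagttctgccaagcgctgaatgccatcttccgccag

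The TATA box was found on either strand in 13.6% of the 32851 windows in the table, the GC box in 35.7%, the homeodomain core in 5.29% and the E-box CANNTG, not marked here, in 72.3%. The TATA box of Prph began 31 bases before the start and that of Slc5a7 began 187 bases before it. Slc18a3 held 2 GC boxes, Phox2a 4 (a pair of them overlapping), Prph 1, and Chat and Slc5a7 held 0. None of the 7 windows held the homeodomain core. The dinucleotide CG occurred 30 times in the Phox2a window and 27 times in that of Slc18a3, 10 times in each of those of Chat and Prph and 1 time in that of Slc5a7, against a median of 7 over all windows.

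All levels below are log2 processed intensities from which each array's own 75th percentile was subtracted, so a level of 0 lies at that percentile, and levels of different probes are not compared. The labels do not say from which end of the brain coronal fraction 1 came. Hox genes of the hindbrain and spinal cord were highest in fractions 1-3: of 10 in the list, 9 were higher there than in fractions 7-9 and 0 lower, by limma with Benjamini-Hochberg adjustment. Of the 7 telencephalon genes all were lower in fractions 1-3 than in 7-9. Over all probes tested, 8.24% were higher in fractions 1-3 than in 7-9 and 11% were lower. Lhx8, a factor of basal forebrain cholinergic neurons, peaked at 1.27 in fraction 8 and 1.07 in fraction 7, read -1.51 in fraction 6, -1.98 in fraction 9 and -3.21 in fraction 10, and was not well above background in fractions 1 to 5. These genes serve here to describe the ends of the series, and the zones follow them only in part, since Lhx8 in fraction 6 was above fraction 9 and its difference between 7-9 and 4-6 did not pass (adjusted p = 0.214). Fractions 1-3 are therefore used as the hindbrain fractions, 7-9 as those that hold the basal forebrain and 4-6 as the ones between. The slabs are whole, so fractions 1-3 also held cerebellum (4 of 4 cerebellum genes higher than in 7-9) and fractions 7-9 also held striatum and cortex.

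On 7 arrays the slope of the E1A spike-in controls was outside the range set by Feature Extraction: coronal 1 and 2, horizontal 1, 2 and 3, and sagittal 1 and 3. A dim spike-in probe, a107, read between 6.39 and 7.94 (log2 intensity) on these and between 3.07 and 4.94 on the other 15. Results were therefore also computed with this probe as a covariate and on the 15 arrays in range. On the latter coronal fraction 3 alone stands for the hindbrain fractions, with no spread of its own, and is assumed to vary like the other arrays. The arrays lay on 4 slides, and coronal 1 and 3 to 8 shared slide 1.

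Phox2a was seen at the hindbrain end of the coronal series. Its levels were -0.88, -1.83 and -0.70 in coronal fractions 1, 2 and 3, -3.60, -5.42 and -6.89 in fractions 4, 5 and 6, and -7.26, -6.59 and -6.38 in fractions 7, 8 and 9. The probe was well above background in fractions 1 to 4 and in none from 5 to 10, so the hindbrain fractions lay above all others without overlap. The filter on probes tested asked for at least 1 fraction well above background in each series. Phox2a met it here only through fractions 1 to 4, so its calls below are not independent of that filter. Phox2a was higher in fractions 1-3 than in 7-9 by 5.61 (SE 0.89, adjusted p = 0.000963), a difference set against a zone that was not well above background. The bound it gives is at least 22.0-fold, the bright zone's mean against the lowest signal that counted as above background or the probe's own, whichever was higher. Against fractions 4-6 the fitted difference was 4.16 (SE 0.89, adjusted p = 0.00556), but the probe was well above background in fraction 4 alone of these, so its size is not a measured one. On the arrays in range alone the first difference was 6.04 and the second 4.60, and the second lost its call (adjusted p = 0.0760). In bulk slabs fewer cells of a type and less RNA per cell cannot be told apart.

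Prph was highest in fraction 1 and lowest in fraction 10. Its levels were 1.65, 0.81 and 0.59 in fractions 1-3, 0.66, 0.14 and -0.01 in fractions 4-6, -1.01, -0.90 and -0.75 in fractions 7-9 and -2.14 in fraction 10, and it was well above background everywhere. The hindbrain fractions did not overlap with 7-9 and overlapped with 4-6. Prph was higher in fractions 1-3 than in 7-9 by 1.90 (SE 0.33, adjusted p = 0.00169), that is 3.74-fold. The difference from fractions 4-6, 0.75 (95% interval 0.04 to 1.47, adjusted p = 0.101), did not pass. It was 0.96 and passed without coronal fraction 3 (adjusted p = 0.0451), was 0.43 without coronal fraction 1, and under median centring of the arrays it came to -0.05. Median centring also ended the first call, with 1.54 (adjusted p = 0.0562).

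**Figure D1:**
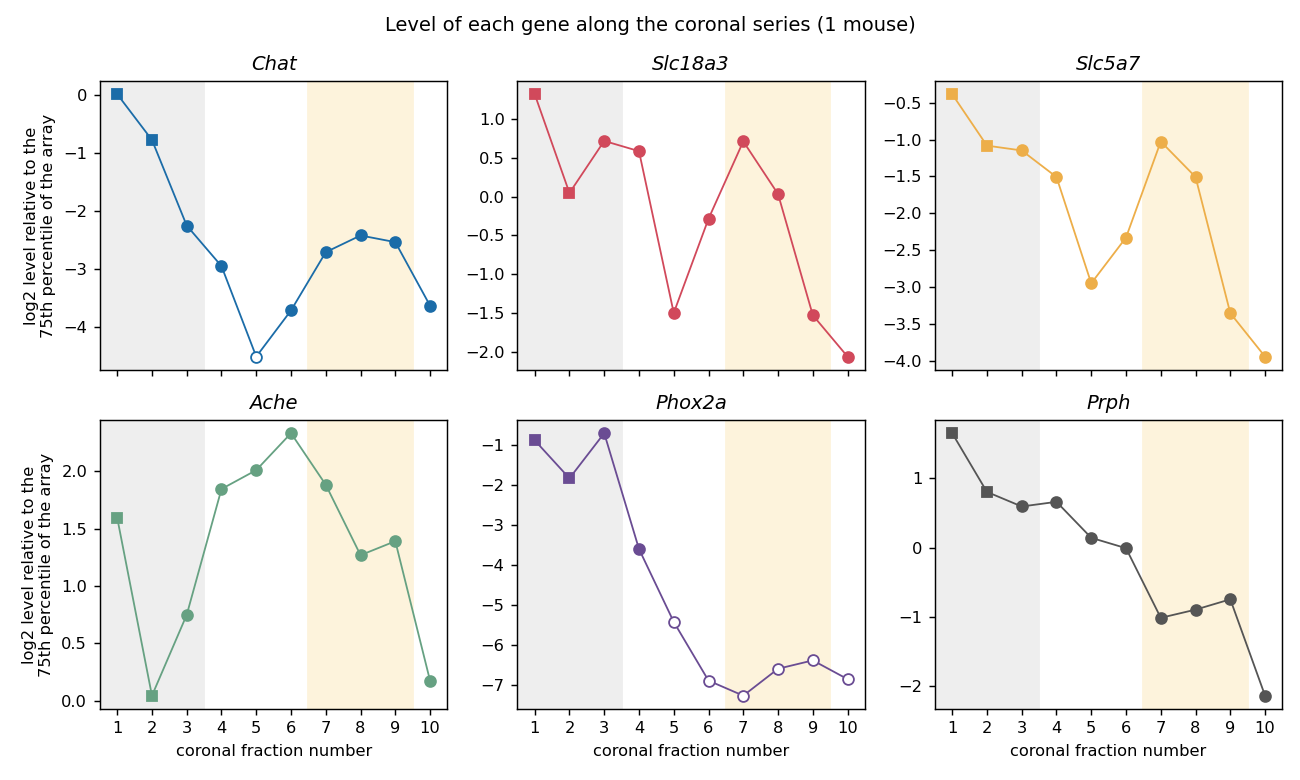
Level of each of the 6 genes (log2 relative to the 75th percentile of the array) against coronal fraction number, 1 array per point. Open symbols were not well above background, squares are arrays with the spike-in slope out of range, grey marks fractions 1-3 and yellow fractions 7-9. Phox2a is well above background in fractions 1 to 4 alone, and Slc18a3 and Slc5a7 have a low at fraction 5 between their highs at fractions 1 and 7.

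Chat, the enzyme that defines the cholinergic neuron, was also highest in the hindbrain fractions. Its levels were 0.02, -0.77 and -2.25 in fractions 1-3, -2.95, -4.51 and -3.71 in fractions 4-6, -2.71, -2.42 and -2.53 in fractions 7-9 and -3.63 in fraction 10. No pair of the 3 zones overlapped, and the probe was not well above background in fraction 5. Chat was higher in fractions 1-3 than in 4-6 by 2.72 (SE 0.72, adjusted p = 0.0165). The difference from fractions 7-9, 1.55 (95% interval -0.00494 to 3.11, adjusted p = 0.161), did not pass, and on the arrays in range it was 0.30. Fractions 1 and 2 are both arrays with the spike-in slope out of range. The call against 4-6 was lost with a107 as a covariate, at 1.54 (adjusted p = 0.0722), and on the arrays in range, at 1.47 (adjusted p = 0.168). It was also lost without any 1 of coronal fractions 1, 2, 5 or 6, with differences of 2.21, 2.60, 2.33 and 2.72.

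Slc18a3, transcribed from within the Chat locus, had 2 highs. Its levels were 1.32, 0.05 and 0.72 in fractions 1-3, 0.59, -1.50 and -0.29 in fractions 4-6, 0.71, 0.03 and -1.53 in fractions 7-9 and -2.06 in fraction 10. The zones overlapped, since fractions 4 and 7 were above fraction 2. The difference between fractions 1-3 and 7-9 was 0.96 (95% interval -0.51 to 2.43, adjusted p = 0.370) and that between 1-3 and 4-6 was 1.10 (95% interval -0.37 to 2.56, adjusted p = 0.217). Neither passed, and single fractions moved both. The first was 0.32 without coronal 9 and 1.44 without coronal 7, and the second 0.55 without coronal 5 and 1.59 without coronal 4.

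Slc5a7 followed the same course. Its levels were -0.38, -1.08 and -1.15 in fractions 1-3, -1.51, -2.95 and -2.33 in fractions 4-6, -1.03, -1.51 and -3.35 in fractions 7-9 and -3.94 in fraction 10. All of fractions 1-3 lay above all of 4-6, while fraction 7 was above fractions 2 and 3. The difference was 1.09 against 7-9 (95% interval -0.12 to 2.30, adjusted p = 0.206) and 1.39 against 4-6 (95% interval 0.18 to 2.60, adjusted p = 0.0795). The first was 0.40 without coronal fraction 9 and 1.56 without coronal fraction 7. The second, whose adjusted p ran from 0.0281 to 0.554 over its alternatives, passed in 3 of them: normexp background correction (1.04, adjusted p = 0.0308), fractions 1-2 and 7-8 in place of 1-3 and 7-9 (1.53, adjusted p = 0.0281) and without coronal fraction 9 (adjusted p = 0.0356). Another probe of Slc5a7, dimmer and well above background on 17 arrays, had r of 0.82 with the one used.

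Ache ran the other way. Its levels were 1.59, 0.05 and 0.75 in fractions 1-3, 1.84, 2.01 and 2.33 in fractions 4-6, 1.88, 1.27 and 1.39 in fractions 7-9 and 0.18 in fraction 10, well above background in all. Fractions 4-6 lay above 1-3 without overlap. Ache was lower in fractions 1-3 than in 4-6 by 1.26 on the log2 scale (-1.26, SE 0.38, adjusted p = 0.0277). Against 7-9 the difference was -0.72 (95% interval -1.53 to 0.10, adjusted p = 0.218), and it was -1.12 and passed without coronal fraction 1 (adjusted p = 0.0469) but -0.34 without coronal fraction 2 (adjusted p = 0.680). The call against 4-6 was lost with a107 as a covariate (-0.93, adjusted p = 0.145), on the arrays in range (-1.31, adjusted p = 0.0683), on the coronal arrays alone (adjusted p = 0.0742), and without coronal fraction 2 (-0.89), 5 (-1.29) or 6 (-1.13).

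Counted over the 6 genes, the hindbrain fractions differed from fractions 7-9 in 2, both higher, where 19.3% of the 39621 probes tested were called and 8.24% were higher. Against fractions 4-6 the calls were 3 of 6, with Chat and Phox2a higher and Ache lower, where 25.5% of all probes were called, 12.4% higher and 13.1% lower. With 1 value per gene, the mean of its RefSeq probes, the shares called were larger. Of 16724 genes 4980 were then called against 7-9, 1888 of them higher, and 5631 against 4-6. Without overlap were 3 of the 6 genes in the first comparison (Chat, Phox2a, Prph), against 28.2% of all probes, and 4 in the second (Chat, Slc5a7, Ache, Phox2a), against 40.5%. The median difference of the 6 genes was 1.32 in the first comparison and 1.24 in the second, beside 0.17 and 0.23 over all probes tested. An exact permutation test of 3 fractions against 3 cannot go below p = 0.1, the value reached by each gene without overlap.

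Fractions 7-9 were set against 4-6 to see whether the genes were higher again toward the fractions where Lhx8 peaked. In limma 0 of the 6 genes were called, as were 0 of all probes tested (0%), although 3481 probes had an unadjusted p under 0.05. The difference was 1.17 for Chat (95% interval -0.39 to 2.72), 0.14 for Slc18a3 (-1.33 to 1.61) and 0.30 for Slc5a7 (-0.91 to 1.51). The sign of the last pair turned with median centring, to -0.31 and -0.15. It was -0.55 for Ache (-1.36 to 0.26) and -1.15 for Prph (-1.87 to -0.44), and Phox2a was well above background in 1 of these 6 fractions, fraction 4. Without overlap were Chat and Prph, 2 of 6, against 17.3% of all probes. The levels varied within the zones, with fraction 5 the lowest of fractions 1-8 in Chat, Slc18a3 and Slc5a7 and fraction 9 again low in the transporters. As a description with no test, and over fractions picked with these levels known, fractions 7-8 minus 5-6 gave 1.55 for Chat, 1.27 for Slc18a3 and 1.37 for Slc5a7, while Ache gave -0.59 and Prph -1.02.

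**Figure D2:**
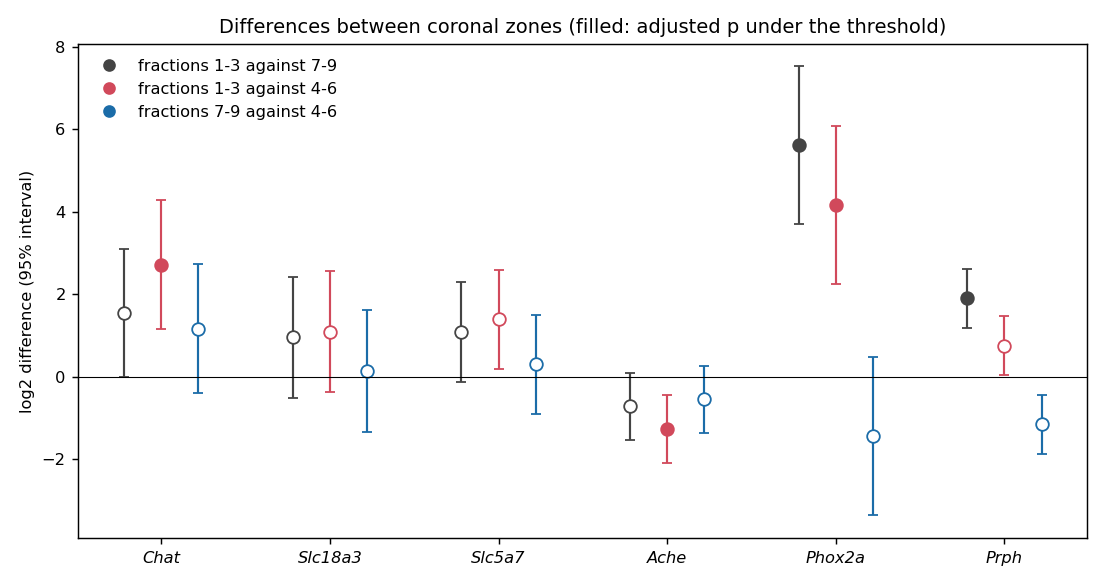
Difference between coronal zones in log2 units for each of the 6 genes, with the 95% interval from limma. Filled points have an adjusted p under 0.05. Phox2a is called in both comparisons of fractions 1-3, Prph against 7-9, Chat and Ache against 4-6, and no point of fractions 7-9 against 4-6 is filled.

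A smooth change along the coronal series was tested with linear and quadratic terms in slab position. It was called for 19.8% of all probes and, with 1 value per gene, for 5058 of 16724 genes. Of the 6 genes 3 passed. These were Prph (fitted range -3.26, the negative sign marking a lower level at fraction 10, adjusted p = 0.000683), Phox2a (adjusted p = 0.00237, with no size given since it was not well above background from fraction 5 on) and Slc5a7 (-2.72, adjusted p = 0.0363). The Slc5a7 call was lost in 7 of 13 other settings and without any 1 of coronal fractions 1, 2, 3, 4, 6, 9 or 10, where the fitted range lay between -2.78 and -1.83. Chat had a fitted range of -3.25 (adjusted p = 0.0543) and passed in 4 other settings and without coronal 8 or 10 or horizontal 3 or 4, but was -1.95 without coronal 1, and its adjusted p reached 0.945 on the arrays in range. Slc18a3 (-2.49, adjusted p = 0.0898) passed without coronal 5 (-2.73), and Ache (-1.44, adjusted p = 0.118) without coronal 1 (-2.02) and on the arrays in range (-1.98), with adjusted p up to 0.271 and 0.388 over their alternatives.

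Along the horizontal series Slc18a3, Slc5a7, Ache, Phox2a and Prph were highest in fraction 5. Fractions 1-3 of this series are its arrays with the spike-in slope out of range, and fractions 4-6 are in range. For none of the genes can position be told apart there from that difference between arrays. Slc18a3 read -1.94, -2.24 and -1.83 in fractions 1-3 and -0.20, 1.43 and 0.30 in fractions 4-6. Slc5a7 read -3.66, -4.03 and -2.38, then -1.58, -0.67 and -1.15. For both transporters the later fractions lay above the earlier ones without overlap, by 2.51 and 2.22 on average. Phox2a was not well above background in fractions 1-3 and read -2.09, -1.64 and -2.70 in fractions 4-6, at least 11.7-fold higher. Ache was higher in 4-6 by 1.11, without overlap, and Prph by 0.74, with overlap. In all, 4 of the 6 genes lay higher in fractions 4-6 without overlap, against 17.4% of all probes.

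Chat alone of the 6 was higher in horizontal fractions 1-3, at 0.18, -0.39 and 0.30, than in 4-6, at -3.0, -1.56 and -2.33. For Chat, as for the other genes, position and the difference in spike-in slope between horizontal fractions 1-3 and 4-6 cannot be told apart. Position along this series passed for Phox2a alone (fitted range 5.86, set against fractions not well above background, adjusted p = 0.0414), against 6.57% of all probes (9 probes without horizontal fraction 1). With 1 value per gene 2187 of 16724 genes were called. Phox2a met the filter on probes tested in this series only through fractions 4-6, where it was high. The adjusted p was 0.0771 for Slc18a3, which passed with quantile normalization (4.04, adjusted p = 0.0469) and on the probes above background on all arrays (adjusted p = 0.0476). For Slc5a7 it was 0.0527. Slc5a7 passed in 6 other settings and without coronal 1, 2, 5, 7, 8 or 10, with adjusted p from 0.0186 to 1.00 over its alternatives. The Phox2a call was lost with a107 as a covariate (3.30, adjusted p = 0.533), with normexp (1.43, adjusted p = 0.164), with no filter on dim probes (adjusted p = 0.0554) and on the horizontal arrays alone (adjusted p = 0.184), and its range on the arrays in range, all at fractions 4-6, was -1.06. It was also lost without coronal 5, 6 or 7, horizontal 1, 2, 4 or 5, or any 1 of the sagittal fractions, with ranges between 5.23 and 5.86.

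Along the sagittal series 4 of the genes lay higher in the middle fractions than in both outer ones. Each outer fraction joined more than 1 slab, and each middle fraction was 1 slab. Slc18a3 read 0.01, -0.35, -0.49 and -0.99 in fractions 2 to 5 against -2.27 and -1.87 in fractions 1 and 6. Slc5a7 read -1.38, -1.01, -1.73 and -2.06 against -2.97 and -3.14, and Phox2a -2.42, -1.73, -2.85 and -2.82 against -4.13 and, not well above background, -6.13. Prph read 0.02, 0.03, -0.32 and -0.72 against -0.75 and -1.12. These 4 of the 6 genes did not overlap between middle and sides, against 10.1% of all probes. The quadratic term, middle against both sides, was called for 0 of the 6 genes in limma and for 0.0303% of all probes. At an unadjusted p under 0.05 stood Slc18a3 (-1.71, p = 0.0452), Slc5a7 (-1.64, p = 0.0271) and Phox2a (-2.91, p = 0.0162). With 1 fraction left out these terms ran from -1.86 to -0.18, from -1.83 to -0.44 and from -3.23 to -1.43. The linear term, one side against the other, was also called for 0 of the 6, where 10.0% of all probes were (0 probes without sagittal fraction 6), and the nearest was Chat (-3.74, SE 1.18, adjusted p = 0.0581). Chat read -0.04 in sagittal fraction 1, -0.70 in fraction 3 and between -4.34 and -2.29 in the other fractions, and fractions 1 and 3 are the sagittal arrays with the slope out of range. Its linear term passed without coronal 5 or 10, horizontal 3 or 4 (each -3.74) or sagittal 2 (-4.39), and in 3 other settings, but was -2.10 without sagittal 6 (adjusted p = 0.671). On the arrays in range the linear term passed for Ache (-1.93, adjusted p = 0.0293) and Phox2a (-3.57, adjusted p = 0.0481), which was not well above background in fraction 6.

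**Figure D3:**
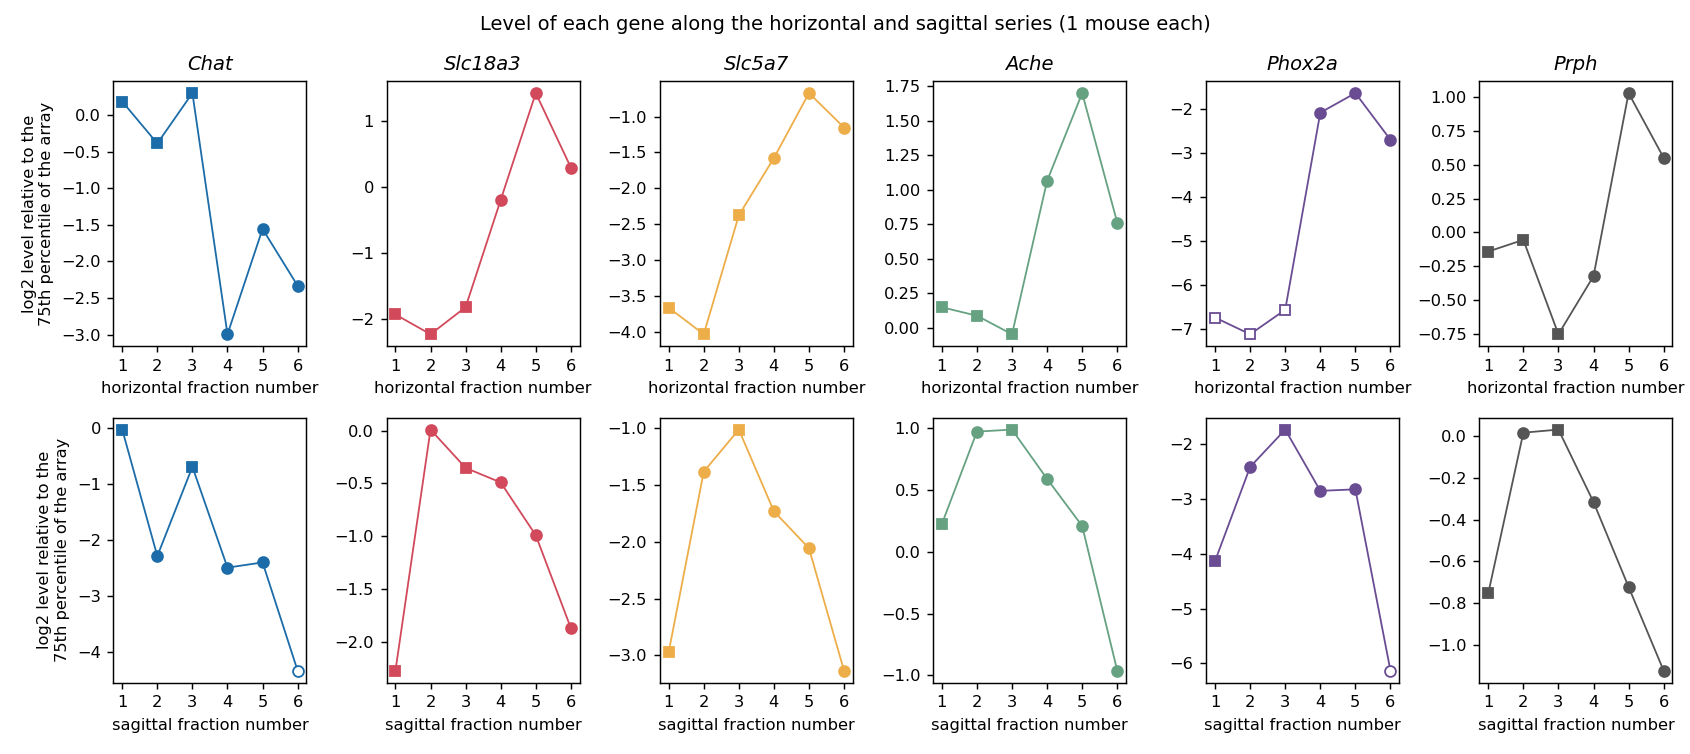
Level of each gene (log2 relative to the 75th percentile of the array) against fraction number in the horizontal series, upper row, and the sagittal series, lower row, 1 mouse each. Open symbols were not well above background and squares are arrays with the spike-in slope out of range. Chat is high on every square, while Slc18a3 and Slc5a7 are low in horizontal fractions 1-3.

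The profile of Chat differed from those of the transporters on those arrays. Its median was -0.04 on the 7 arrays out of range and -2.53 on the 15 in range, while Slc18a3 had -1.83 and -0.20 and Slc5a7 -2.38 and -1.58. Over the 22 arrays, which share animals and slides, r between Chat and a107 was 0.82, above that of all but 12.5% of the probes tested, whose median r was 0.06. The r of a107 was -0.50 with Slc18a3 and -0.32 with Slc5a7. Chat and Slc18a3 had r of -0.04 over all arrays, 0.69 over the 15 in range and 0.64 over the 10 coronal arrays. Slc18a3 and Slc5a7 had r of 0.92, 0.95 and 0.97 over the same sets. What part the difference between arrays has in the Chat values was not tested further, and Chat had no other RefSeq-identified probe.

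**Figure D4:**
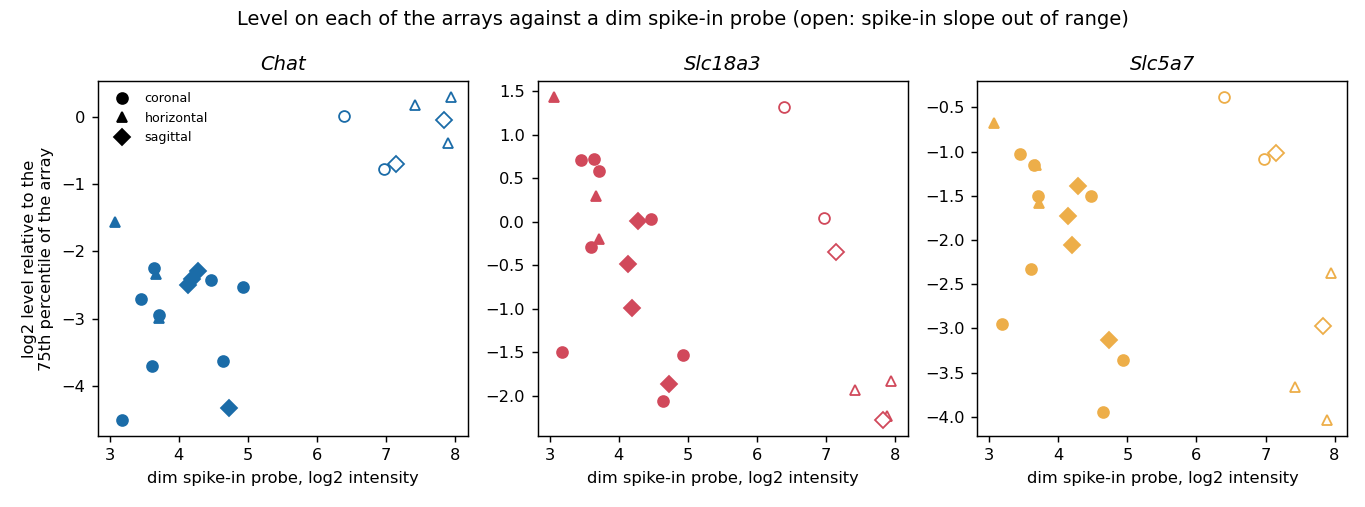
Level of Chat, Slc18a3 and Slc5a7 (log2 relative to the 75th percentile of the array) against the log2 intensity of the dim spike-in probe a107 on each of the 22 arrays. Open symbols are the 7 arrays with the spike-in slope out of range. Chat lies between -0.77 and 0.30 on these and at -1.56 or lower on all others, and the transporters do not separate that way.

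The genes most like each member over the 22 fractions were sought among 16723 genes with a tested RefSeq probe. Slc18a3 and Slc5a7 were each other's nearest (r = 0.92). Slc18a3 was followed by Myo1d and Cnp (0.89 and 0.88) and Slc5a7 by Cnp and Arhgap36 (0.91 and 0.89). Mal was among the 3 genes nearest to Phox2a (0.91). Cnp and Mal are genes of myelin-forming oligodendrocytes. Ache was nearest to Syt3 (0.95), Ufsp1 (0.94) and Tmem151a (0.94), and Ufsp1 begins 203 bases past the end of Ache in the RefSeq annotation. Prph was nearest to Prr5l, Syt2 and Pthlh (0.89, 0.89 and 0.84), and Chat to Klk1b22, Rgs7bp and Otud7b (0.90, 0.89 and 0.89).

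Other factors of motor neurons were counted from a list of 12, of which 11 were tested. Against fractions 7-9, 4 were higher in the hindbrain fractions and 1 lower, beside 8.24% and 11% of all probes, with a median of 1.89. Among them Nkx6-2 was higher by 4.19 (SE 0.75), Lhx3 by 4.03 (SE 0.71) and Neurog2 by 1.95 (SE 0.57), but each was well above background in 1 of fractions 7-9, so these sizes are not measured ones. Isl1, a factor of motor neurons and of striatal and basal forebrain cholinergic neurons, was lower (-3.19, SE 0.85, adjusted p = 0.0181). It read between -4.94 and -4.43 in fractions 1-3, -5.99 in fraction 4 and -0.52 at its highest, in fraction 8. Against fractions 4-6, 2 were higher, among them Lhx3 (2.56, SE 0.71), and 0 lower, beside 12.4% and 13.1% of all probes. With a107 as a covariate 1 of the 11 was called there.

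Of the 15 motor neuron effectors, 5 were higher in fractions 1-3 than in 7-9, where 8.24% of all probes were, and 2 were lower, near the 11% of all probes. Sncg, gamma-synuclein, was higher by 4.36 (SE 0.66, adjusted p = 0.000748), Calcb, a calcitonin gene-related peptide, by 4.27 (SE 0.73, at least 9.55-fold) and Uts2, urotensin 2, by 3.57 (SE 0.66, at least 6.68-fold). Nefh, the heavy neurofilament, was higher by 1.90 (SE 0.42). The lower ones were the guidance ligands Slit3 (-0.72) and Slit2 (-0.72). Uts2 was well above background in fractions 1-3 and in no other coronal fraction. It thus met the filter on probes tested in this series only through the fractions where it was high. Against fractions 4-6, 3 of the 15 were higher (Uts2, Calcb and Sncg), beside 12.4% of all probes, and 2 lower (Slit3 and Slit2), near the 13.1% of all probes.

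The basal forebrain list of 7 genes went both ways. Of its genes 2 were lower in fractions 1-3 than in 7-9 and 2 higher, beside 11% and 8.24% of all probes. Lhx8, one of the lower ones, had served to name the zones, so its difference is no finding. Nkx2-1, a factor of the ventral forebrain, was lower (-3.62, SE 1.00, at least 5.32-fold). Zic4 (1.94, SE 0.56) and the p75 neurotrophin receptor Ngfr (1.88, SE 0.45), a surface marker of basal forebrain cholinergic neurons, were higher. Ngfr read 0.94, 1.66 and 2.16 in fractions 1-3 and -0.19 in fraction 8, where Lhx8 was highest. Over the 22 fractions r of Lhx8 was 0.17 with Slc18a3, 0.24 with Slc5a7 and -0.06 with Phox2a.

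**Figure D5:**
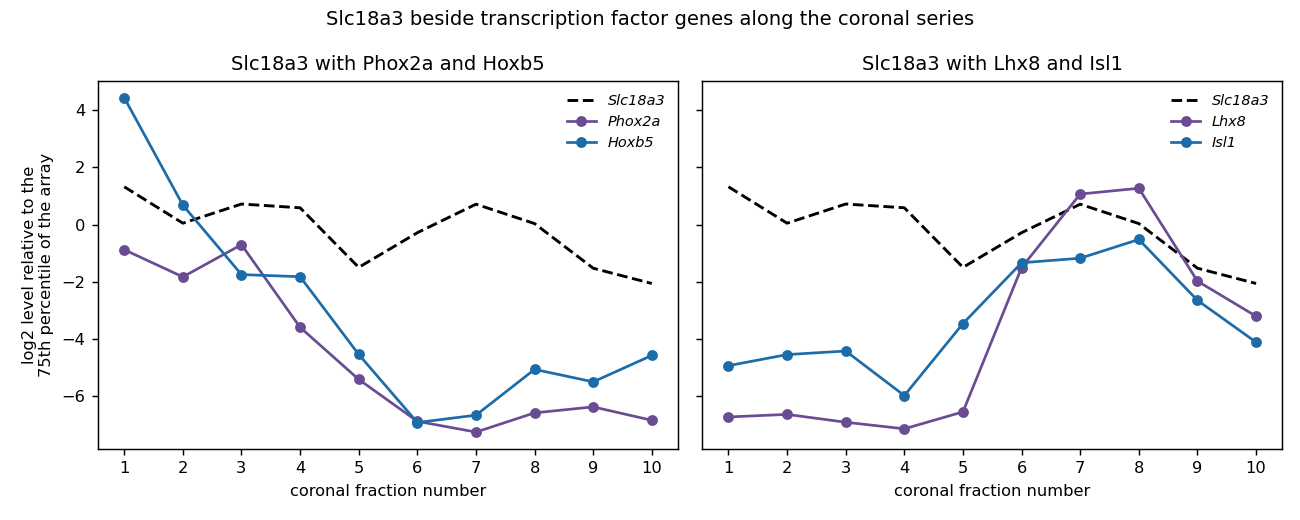
Level (log2 relative to the 75th percentile of the array) along the coronal series of Slc18a3, dashed, beside Phox2a and Hoxb5 on the left and Lhx8 and Isl1 on the right. Shapes and not heights are to be compared, since each gene is read from its own probe. Phox2a drops between fractions 3 and 6, and Lhx8 is high in fractions 7 and 8, near the later high of Slc18a3.

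Among 8 other acetylcholine and choline genes, 1 was higher and 1 lower in fractions 1-3 than in 7-9, near the shares of all probes (8.24% higher and 11% lower). The choline transporter-like protein Slc44a1 was higher (1.02, SE 0.27, adjusted p = 0.0173), and Slc10a4, a vesicle protein of cholinergic and monoaminergic neurons, was lower (-1.44, SE 0.45, adjusted p = 0.0386). Slc10a4 was lower against fractions 4-6 as well (-1.71, SE 0.45), and with a107 as a covariate 0 of the 8 were called there. Of the 16 nicotinic receptor subunits 11 were tested. Chrna3 (1.23, SE 0.34) and Chrnb4 (1.02, SE 0.23), which form ganglion-type receptors, were higher in 1-3 than in 7-9, Chrna3 being well above background in 1 of the latter, and Chrna7 was lower (-2.09, SE 0.28, adjusted p = 0.000372). These 2 higher and 1 lower of 11 stood beside 8.24% and 11% of all probes. Against fractions 4-6, 2 were higher and 4 lower, beside 12.4% and 13.1% of all probes, and with a107 as a covariate 1 was called. Of 4 muscarinic receptors tested, Chrm1 (-2.85, SE 0.58) and Chrm3 (-1.72, SE 0.22) were lower in fractions 1-3 than in 7-9 and 0 were higher, beside 11% and 8.24% of all probes.

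Phox2a also marks noradrenergic neurons, and their genes were counted beside it. Dbh, dopamine beta-hydroxylase, read 1.13, -1.53 and 2.20 in fractions 1-3 and between -2.26 and -2.18 in fractions 7-9 (difference 2.81, SE 0.99, adjusted p = 0.0621). Slc6a2, the noradrenaline transporter, was well above background in fractions 1-3 and 4 and not in 7-9. Of the 5 noradrenergic genes 1, Tfap2b (4.20, SE 0.85), was called higher in fractions 1-3 than in 7-9 and 0 lower, beside 8.24% and 11% of all probes. Against fractions 4-6, 0 were higher and 1 lower, Slc18a2 (-1.31, SE 0.27), the vesicular monoamine transporter, beside 12.4% and 13.1% of all probes. The summed linear level of the list, which adds different probes so that bright ones weigh most, lay between 4.01 and 11.2 in fractions 1-3, 4.11 and 16.7 in 4-6 and 2.87 and 4.74 in 7-9, and was 24.4 in fraction 10. Th, also a dopaminergic gene, had log2 levels of 3.26 in fraction 4 and 4.54 in fraction 10, where the sums were highest. Their part in the Phox2a values was not tested.

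Prph is shared with sensory neurons. Of the sensory ganglion list of 9, 8 had a probe and 6 were tested, with 1 higher in 1-3 than in 7-9, Pou4f1 (3.14, SE 0.77), and 1 lower, Prdm12 (-4.25, SE 0.62, at least 12.4-fold), where 8.24% of all probes were higher and 11% lower. Of the 22 arrays Avil was well above background on 0, Mrgprd on 4, Trpv1 on 9, Scn10a on 10, Prdm12 on 18, Pou4f1 on 21, and P2rx3 and Scn11a on 22. The sums that follow add the linear levels of different probes, so bright probes weigh most. The summed level of the sensory list, which Pou4f1, also a gene of brain neurons, led in coronal fraction 1 with a log2 level of 1.77, was 1.30 to 4.17 in fractions 1-3, 1.46 to 2.71 in 4-6 and 1.16 to 1.44 in 7-9. The summed level of 4 Schwann cell genes was 0.589 to 1.2 in fractions 1-3, 0.875 to 3.40 in 4-6 and 0.885 to 0.929 in 7-9. The red blood cell genes moved with the hindbrain fractions, 5 of 5 tested being higher there than in 7-9, with sums of 90.0 to 108 in fractions 1-3 and 26.4 to 35.9 in 7-9. Muscle genes, at sums of 1.66 to 2.22 in fractions 1-3 and 3.32 to 3.58 in 7-9, were 1 higher and 3 lower of 7 tested, against the same shares of all probes. The part of these cells in the Prph values was not tested.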

How the data were processed

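Total RNA of 22 brain fractions was labelled with Cy3 and hybridised to Agilent SurePrint G3 Mouse arrays designed on mm9. Per the file headers, the authors extracted the spots with Feature Extraction 10.10.1.1, which gives a background-subtracted intensity on a linear scale. The deposited table of log2 values was, for 99.9% of its values within 0.02, the log2 intensity with each array's 75th percentile subtracted, and served as an alternative. No column was left unused. The labels give slabs of 500 µm, while the study's methods give thicker ones for a brain of the age in the titles, so the thickness is not settled here.

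Here control and outlier spots were left out (131 to 187 outliers per array, 0 saturated), the spots of a probe averaged, and the log2 intensity scaled to the 75th percentile over 55600 probes. On an array 29605 to 41965 probes were well above background, and precision is limited by how few arrays there are. The 39621 probes well above background in at least 1 fraction of each series were tested with limma 3.58.1 in R 4.3.3. One model held a mean per coronal zone (fractions 1-3, 4-6, 7-9 and 10) and a quadratic curve for each other series (10 coefficients, 12 residual degrees of freedom, median residual SD 0.35), and another a quadratic curve for all 3 series (13 residual degrees of freedom). P-values were Benjamini-Hochberg adjusted over all probes, with a threshold of 0.05. Intervals are 95% intervals of single comparisons.

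The study's methods name no test. Gene names came from RefSeq (GRCm38.p6), used for names, promoters and neighbours only. The genes, lists and tests were chosen with earlier results of these data known. Of the lists, at most the 4 genes with the largest called difference in each direction are named, and the 3 genes most like each member; some genes that this rule names are not reported here. The normexp alternative (offset 50) used the median spot signal, in place of the mean signal that was planned, on probes that are not controls. Models were tested on simulated data with known changes. Python 3.11.15, numpy 2.4.6, scipy 1.17.1, pandas 2.3.3 and matplotlib 3.10.9 were used.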

Additional observations from a re-analysis of the deposited data

How the results depend on the processing

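The hindbrain fractions differed from 7-9 in 2 of the 6 genes, in 1 with median centring and in 1 on the probes above background on all arrays (4 genes tested), with 2 to 3 when 1 fraction was left out. Against 4-6 the count of 3 became 1 on the probes above background on all arrays and with a107 as a covariate, and 0 on the arrays in range, with 1 to 4 when 1 fraction was left out (1 without coronal 2, 5 or 6). For fractions 7-9 against 4-6 it stayed at 0, and for coronal position it was 2 to 4 with 1 fraction left out. Horizontal position, called for 1 gene, was called for 2 with median centring, no scaling, the probes above background on all arrays, slide as a random block, and trend with robust variance, for 3 with quantile normalization, and for 0 with normexp, no filter, a107 as a covariate, the arrays in range and the horizontal arrays alone (0 to 2 with 1 fraction left out). The sagittal linear term, called for 0, was called for 1 with quantile normalization, no scaling, and trend with robust variance, and for 2, Ache and Phox2a, on the arrays in range (0 to 1 with 1 fraction left out), and the quadratic term stayed at 0. The causes were not tested.

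Signs turned as follows, none of them past the threshold. With median centring Prph became -0.0511 (1-3 against 4-6), Slc18a3 -0.31 and Slc5a7 -0.15 (7-9 against 4-6), Ache 2.21 (coronal position) and Slc18a3 0.15 (sagittal linear term). With no scaling Slc18a3 became -0.31 and Slc5a7 -0.15 in 7-9 against 4-6, and with quantile normalization Slc18a3 0.0131 (sagittal linear). With normexp Slc5a7 became 0.00246 and Phox2a 0.28 (sagittal linear) and Chat 0.38 (sagittal quadratic). With a107 as a covariate Chat became 0.55, and on the arrays in range Chat 1.44, Ache -0.94 and Phox2a -1.06, all along the horizontal series. Leaving out 1 fraction gave -0.41 to 0.77 for Slc18a3 and -0.17 to 0.99 for Slc5a7 in 7-9 against 4-6 (turned without coronal 5, 7 or, for Slc18a3, 8), -2.02 to 1.11 for Ache along the coronal series (turned without coronal 10), and, in the sagittal linear term, -1.86 to 1.00 for Slc18a3, -1.94 to 0.73 for Slc5a7 and -3.77 to 1.02 for Phox2a, and -1.07 to 0.38 for Chat in the quadratic term.

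Median centring moved the median over all probes tested from 0.17 to -0.19 in 1-3 against 7-9 and from 0.23 to -0.57 in 1-3 against 4-6. It moved the calls from 3265 higher and 4372 lower to 434 and 1163 in the first and from 4931 and 5175 to 1149 and 7115 in the second, and the calls over all probes from 7850 to 2887 for coronal position, from 2604 to 525 for horizontal position and from 3968 to 3 for the sagittal linear term, so the shares of all probes given as background depend on the scaling. With only the arrays of the series tested, calls over all probes went from 7637 to 2973 in 1-3 against 7-9 and from 10106 to 3562 in 1-3 against 4-6. They went from 7850 to 634 for coronal position, and to 0 for horizontal position and the sagittal linear term. Within slide 1 each coronal difference kept its sign. Exact permutation tests of 3 against 3 fractions cannot go below 0.1. No paired analysis was possible because fraction numbers mark positions along different axes of different mice.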
